A study of Mus musculus with 8 samples.

Results

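Of the 83057 transcript rows measured in these livers, 3271 lay just downstream of a protein-coding gene. Each of these downstream transcripts overlapped no coding gene, began 1 to 10000 bases past the 3′ end of a coding gene on the same strand, and had no coding gene start within 1 kb of its own start. Each had at least 50 reads over the 8 libraries; 5580 rows met the rule on position alone. The 3271 transcripts formed 2687 loci, a locus being a set of overlapping rows on 1 strand, and lay after 2051 coding genes, of which 494 had 2 or more such loci. The rule used no comparison between groups.

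The livers came from male C57BL/6 mice of about 20 weeks of age, killed at 10 am. Liver was taken from 4 mice fasted for 24 hours and from 4 mice with free access to food, called ad libitum here, 1 library per mouse. Total RNA was turned into strand-marking total RNA libraries, and reads were given per transcript of the NONCODE catalogue on the mouse build mm10.

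A coding transcript normally ends where a cleavage complex cuts it after a polyadenylation signal, a short A-rich hexamer, and adds a poly(A) tail. RNA polymerase runs on past that point before it is released, so reads past an annotated gene end can stem from a longer 3′ untranslated region, from transcription that continued past the end, or from a separate gene that starts there. In liver, fasting is known for switching on fatty acid oxidation and switching off lipid synthesis.

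The last 120 bases of 5 downstream transcripts are shown, as read from GENCODE release 21 transcripts on mm10. Of the downstream transcripts, 207 had exactly the span of a GENCODE non-coding transcript, and these 5 are ones the results turn on. The first 2 are the ends of the long and the short form of Neat1, the RNA that holds nuclear paraspeckles together, at chr19:5824708-5824827 and chr19:5842307-5842426 on the minus strand. The other 3 are Gm38283 after Insig2 at chr1:121300137-121300256 on the minus strand, Gm48878 after Avpr1a at chr10:122456690-122456809 on the plus strand, and Gm47155 after Homer1 at chr13:93412838-93412957 on the plus strand. Capitals mark the polyadenylation signal AATAAA where the last 50 bases held one, and in the long Neat1 form the A-rich tract at its very end.
Neat1 long form: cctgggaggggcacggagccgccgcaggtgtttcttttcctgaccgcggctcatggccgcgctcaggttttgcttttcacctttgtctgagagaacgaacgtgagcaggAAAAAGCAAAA
Neat1 short form: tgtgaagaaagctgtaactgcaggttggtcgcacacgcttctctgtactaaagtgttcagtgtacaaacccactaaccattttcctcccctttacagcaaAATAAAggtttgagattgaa
Gm38283: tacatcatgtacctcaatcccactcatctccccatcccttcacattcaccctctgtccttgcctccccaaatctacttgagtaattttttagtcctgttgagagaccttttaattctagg
Gm48878: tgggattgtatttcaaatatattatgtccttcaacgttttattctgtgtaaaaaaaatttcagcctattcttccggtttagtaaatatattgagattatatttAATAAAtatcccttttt
Gm47155: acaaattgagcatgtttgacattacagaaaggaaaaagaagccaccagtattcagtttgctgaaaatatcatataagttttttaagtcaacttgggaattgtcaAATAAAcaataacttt

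The signals AATAAA and ATTAAA were searched on the transcript's own strand in its last 50 bases. The short Neat1 form, Gm48878 and Gm47155 held AATAAA, while the long Neat1 form and Gm38283 held neither hexamer. Of the 207 downstream transcripts equal to a GENCODE non-coding transcript, 74 (35.7%) held one, against 33.0% of the 8950 rows of the whole table that matched in the same way. Of all 21951 coding genes, 71.9% held one at their annotated end. The share was 64.5% for the 301 genes whose nearest downstream transcript began within 1000 bases, 67.4% for 218 genes at more than 1000 and up to 2000 bases, 70.6% for 459 genes beyond that up to 5000 bases and 77.7% for 1073 genes beyond that up to 10000 bases. Among the 192 genes whose RefSeq span reached into the downstream transcript, 102 (53.1%) held a signal at the GENCODE end, against 75.1% of the 1859 other upstream genes. Thus the genes with the nearest downstream rows had the lowest share of signals at their annotated end. These shares describe letters in a window and carry no test.

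Library totals, without the mitochondrial 16S row, ran between 90243439 and 119486211 reads in fasted mice and between 51107745 and 68691606 reads in ad libitum mice. Fasted replicate 4 stood apart from the other fasted libraries. On the first principal component of all tested rows, fasted replicates 1 to 3 lay between 90.48 and 102.18, fasted replicate 4 at -4.71 and the ad libitum libraries between -74.81 and -66.3. Of rows with 21 to 200 reads, 16.5% to 17.8% had an odd count in fasted replicates 1 to 3, 10.8% in fasted replicate 4 and 9.21% to 10.3% in ad libitum libraries, so most counts were even throughout. If pairs of reads were counted as separate reads, a count stands for fewer fragments than reads; the effect on the read minimum and on the calls was not tested. For the main results the value for fasted replicate 4 alone against the 4 ad libitum libraries is given as well. It is a single library, assumed in the fit to vary like fasted replicates 1 to 3 and the ad libitum libraries do among themselves. It is also part of the comparison over all libraries, and both comparisons share the ad libitum libraries, so its values are a description and no independent support. The part of these library differences in the results was not tested. Gene levels given here are those of NONCODE rows that share exon bases with the gene, and may differ from those of its mRNA. Of 12 hepatocyte marker genes, 4 had rows in the table, of which 3 were higher and 1 lower in fasted livers, with a summed level of 733 to 944 CPM in fasted and 337 to 478 CPM in ad libitum livers; CPM are counts scaled to a common library size after TMM adjustment. Cps1, the urea cycle enzyme, had 734 ± 87.8 CPM in fasted and 293 ± 61.2 CPM in ad libitum livers, while Ttr, which encodes the thyroid hormone carrier transthyretin, had 26.4 ± 1.25 CPM in fasted and 64.7 ± 4.68 CPM in ad libitum livers (SD, n = 4 each). The log2 changes were 1.32 for Cps1, -1.29 for Ttr, and 2.26 for Ahsg and 1.01 for Hnf4a, both from 1 row on the opposite strand. In fasted replicate 4 they were 1.36 for Cps1, -1.26 for Ttr, 0.57 for Ahsg and 0.39 for Hnf4a. In whole tissue, fewer cells of a type and less RNA per cell cannot be told apart.

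The downstream transcripts were mostly unspliced, non-coding by score and scarce. Of them, 75.1% had 1 exon, against 53.9% of all rows, and their median length was 1476 bases, against 1189.5 bases. Their median CNCI score, a measure of coding potential that is negative for non-coding sequence, was -0.0743, against -0.0795 for all rows. The median deposited RPKM, reads scaled for length and library size, was 0.193 in downstream transcripts, 0.0800 over all rows and 0.0269 in 31577 rows more than 10 kb from any coding gene, but only the first of these sets had a read minimum. At that minimum, the 100 members with 50 to 54 reads had a median of 0.0491 RPKM, and the 98 rows just left out, with 45 to 49 reads, had 0.0438 RPKM.

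By annotation they were a mixed set. In 281 rows the downstream transcript lay wholly (229 rows) or partly within the RefSeq span of its own upstream gene, so that RefSeq already places a longer end there. Every other row was put in 1 class only. First, 166 rows overlapped a pseudogene or, without a long non-coding gene, a small RNA gene. Next, 93 rows overlapped the RefSeq span of another coding gene. Of the remaining rows, 358 overlapped a GENCODE long non-coding gene on their own strand and 2373 none of these. Long non-coding genes on the opposite strand were not counted. Median levels were lower farther out: the median was 0.329 RPKM for rows that began within 1000 bases, 0.257 RPKM at more than 1000 and up to 2000 bases, 0.243 RPKM beyond that up to 5000 bases and 0.154 RPKM beyond that up to 10000 bases. The 10 rows with the most reads held 32.7% of all downstream reads. Of the downstream transcripts, 49.0% overlapped another row of the table, 653 of them one on the opposite strand. In 49 pairs of 1-exon rows on opposite strands of the same place, with at least 100 reads, the lower count was a median of 89.3% of the higher one, so a row and its opposite-strand partner cannot be told apart by these counts.

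Of the 2631 downstream transcripts that passed the low-count filter (80.4% of the 3271), 422 differed between fasted and ad libitum livers. At an adjusted p under 0.05 in edgeR's quasi-likelihood test, 226 were higher and 196 lower in fasted livers. Over all 40321 tested rows 17.5% passed, 9.7% higher and 7.81% lower, so the downstream share of 16% was near the background. The median log2 change was 1.41 for the 226 that passed as higher and -0.83 for the 196 that passed as lower. The same transcripts had medians of 0.69 and -0.80 in fasted replicate 4. In that library 36 of the 226 changed in the opposite direction and 190 in the same one, while all 196 lower ones kept their direction. A change of at least 2-fold was reached by 162 of the 226 and by 71 of the 196; over all tested rows 8.03% passed and reached 2-fold. Fasted replicate 4 alone gave 42 downstream transcripts higher and 49 lower, where 3.35% of all rows passed, 2.09% higher and 1.26% lower. The 4 fasted values did not overlap the 4 ad libitum values in 473 downstream transcripts (18%), against 19.5% of all rows. Single libraries moved the count of 422 by more than 1.5 times: leaving out fasted replicate 4 gave 680. Leaving out fasted replicate 1, 2 or 3 gave 236, 281 and 235, and ad libitum replicate 1 or 4 gave 267 and 279.

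**Figure D1:**
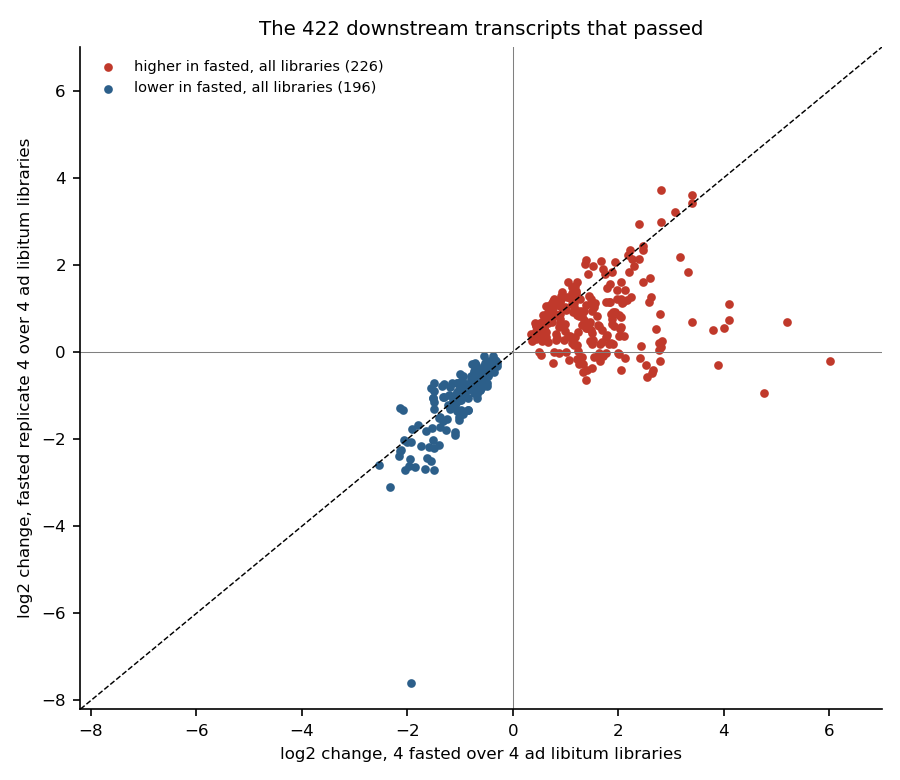
Log2 change of the 422 downstream transcripts that passed: the change over all fasted libraries against ad libitum on one axis, and of fasted replicate 4 alone against ad libitum on the other, so that replicate 4 and the ad libitum libraries enter both axes; red points are the 226 higher and blue points the 196 lower in fasted livers. The medians on the 2 axes are -0.83 and -0.80 for the blue points and 1.41 and 0.69 for the red points.

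Among genes of fatty acid oxidation, the transcript after Cpt1a had the largest rise of those tested. Cpt1a encodes the enzyme that admits long-chain fatty acids to mitochondria. The row began 478 bases past its end, at chr19:3386211-3387996, and fell in none of the annotation classes above. It had 39.2, 40.4, 43.1 and 48.9 CPM in the 4 fasted livers, against 15.7, 13.7, 10.1 and 12.6 CPM in the 4 ad libitum livers. Every fasted value, that of replicate 4 included, was more than 2-fold above every ad libitum value. The log2 change was 1.72 (SE 0.13, adjusted p = 2.6e-06 in edgeR), and 1.91 for fasted replicate 4 alone. The 1 row within Cpt1a itself had 1.28 ± 0.166 CPM in fasted and 0.364 ± 0.143 CPM in ad libitum livers (SD, n = 4 each), a log2 change of 1.80. The downstream row relative to that gene row changed by 0.11 (SE 0.25, adjusted p = 0.80 in limma) and did not pass. With a pseudocount of 0.5 CPM in place of 0.1 CPM, a value above the gene row's ad libitum mean, it did, by 0.64 (adjusted p = 0.029 in limma).

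Both rows after Ppara, the nuclear receptor that turns on oxidation genes in fasting, were also higher, by less. They lay wholly within the RefSeq span of Ppara, 288 and 2774 bases past the GENCODE end, and were among the most abundant downstream transcripts. The first had 310, 284, 356 and 358 CPM in fasted livers, against 209, 218, 198 and 253 CPM in ad libitum livers, and the groups did not overlap. Its log2 change was 0.58 (adjusted p = 0.0045), and that of the second 0.61 (adjusted p = 0.0029), both from edgeR. In fasted replicate 4 alone these were 0.71 and 0.69. After Acadl, an acyl-CoA dehydrogenase of the same pathway, Gm38218 had 4.68, 4.29, 4.08 and 4.69 CPM in fasted livers, against 3.71, 2.63, 1.30 and 2.71 CPM in ad libitum livers. Its groups did not overlap either, yet the call (log2 change 0.77, adjusted p = 0.047 in edgeR) was lost when any library other than ad libitum replicates 1 and 3 was left out, with adjusted p between 0.060 and 0.11.

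Other regulators of the fasting response did not pass downstream. These were the single rows after Fkbp5, a glucocorticoid-induced co-chaperone, after Foxo1, a forkhead factor restrained by insulin, and after Cebpb, and both rows after Ppargc1a, a coactivator of gluconeogenesis and oxidation. All 5 stood at or below 0.827 CPM on average in either group. The row within Ppargc1a was higher in fasted livers (3.16 ± 0.534 CPM, against 1.39 ± 0.511 CPM in ad libitum livers; SD, n = 4 each), and the nearer of the downstream rows changed relative to it by -1.30 (adjusted p = 0.013 in limma). In all, 4 of the 9 tested rows after genes of the list of fasting response and oxidation passed, all of them higher, where 17.5% of all tested rows passed and 9.7% were higher.

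Insig2 was followed by a run of higher rows. Its protein holds the sterol sensor SCAP in the endoplasmic reticulum and so restrains sterol synthesis. Its 6 downstream rows, in 3 loci, began 3522 to 9345 bases past its end on chromosome 1. The nearest, Gm38283 (sequence above), had 5.55, 6.85, 7.88 and 2.89 CPM in fasted livers, against 0.571, 0.719, 0.572 and 0.703 CPM in ad libitum livers. Every fasted value was at least 4-fold above the ad libitum values, with replicate 4 the lowest of the fasted. Its log2 change was 3.17 (SE 0.30, adjusted p = 0.00011 in edgeR), and 2.17 in fasted replicate 4. The other 5 rows changed by 1.74 to 2.30, and all 6 passed. In fasted replicate 4 those 5 changed by 1.78 to 2.23, and the rows at 5309 and 9345 bases did not pass (adjusted p = 0.097 and 0.069 in edgeR). The row within Insig2 had 129.7 ± 25 CPM in fasted and 42.8 ± 5.00 CPM in ad libitum livers (SD, n = 4 each), a log2 change of 1.60. Relative to that gene row only Gm38283 passed, by 1.32 (adjusted p = 0.023 in limma), a call that was lost without any single library other than fasted replicate 4 and ad libitum replicate 4 (adjusted p between 0.055 and 0.070) and that stood at 0.10 in fasted replicate 4.

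Among the other lipogenic and sterol genes the row after Acaca fell. Acaca encodes acetyl-CoA carboxylase, which makes malonyl-CoA for fatty acid synthesis. The row had 0.398, 0.341, 0.297 and 0.224 CPM in fasted livers, against 1.06, 1.04, 0.670 and 0.861 CPM in ad libitum livers, with no overlap. Its log2 change was -1.51 (SE 0.27, adjusted p = 0.0017 in edgeR), and -2.01 in fasted replicate 4. That of the rows within Acaca was -1.26, and the ratio changed by only -0.03 (SE 0.27). The nearer and the farther row after Sc5d, a desaturase of cholesterol synthesis, had 0.109 ± 0.0640 and 0.185 ± 0.0496 CPM in fasted livers, against 0.157 ± 0.0355 and 0.127 ± 0.118 CPM in ad libitum livers (SD, n = 4 each). Their log2 changes were -0.51 and 0.46, and neither passed (adjusted p = 0.55 and 0.66 in edgeR). The row within Sc5d fell by 1.81 on the log2 scale, so both downstream rows were higher relative to it, by 1.46 and 2.27 (adjusted p = 0.0086 and 0.0019 in limma), from few reads. With a pseudocount of 0.02 CPM the first of these calls was lost (adjusted p = 0.12). The row after Pnpla3, a lipid droplet hydrolase, did not pass, and none of the tested downstream transcripts lay after a gene of the list of secreted hepatocyte proteins.

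**Figure D2:**
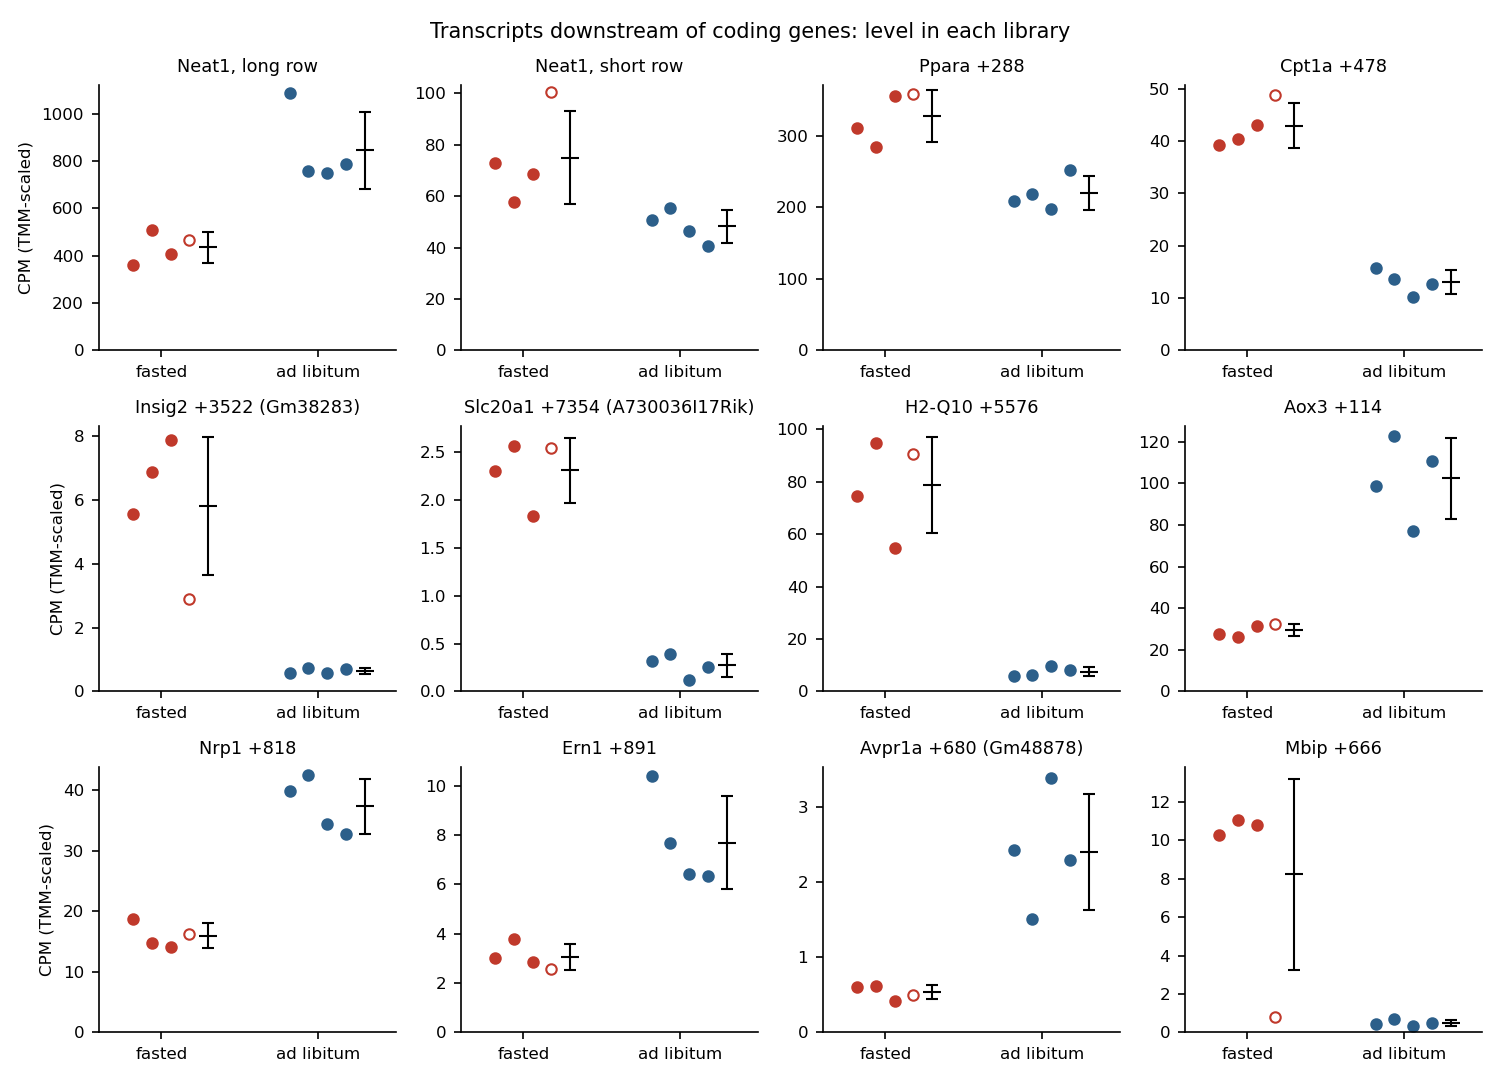
CPM of 12 downstream transcripts in each library, the 4 fasted livers left of the 4 ad libitum livers in each panel; points are libraries, the open circle is fasted replicate 4, and bars are the mean ± SD. The row after Cpt1a (39.2 to 48.9 CPM in fasted, 10.1 to 15.7 CPM in ad libitum livers) keeps replicate 4 with the other fasted livers, while in the row after Mbip replicate 4 lies near the ad libitum livers.

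Of the larger falls, the row after Aox3 was the most abundant. Aox3 encodes an aldehyde oxidase of hepatocytes, and the row began 114 bases past its end, wholly within its RefSeq span. It had 27.8, 26.3, 31.6 and 32.2 CPM in fasted livers, against 98.9, 123, 77.2 and 111 CPM in ad libitum livers. All 4 fasted livers were far below the lowest ad libitum liver. The log2 change was -1.80 (SE 0.14, adjusted p = 2.6e-06 in edgeR), and -1.67 in fasted replicate 4. Gm48878 (sequence above), 680 bases after the vasopressin receptor gene Avpr1a, had 0.605, 0.623, 0.421 and 0.499 CPM in fasted livers, against 2.43, 1.51, 3.39 and 2.30 CPM in ad libitum livers. Again the groups did not overlap, and its log2 change was -2.14 (adjusted p = 5.2e-05 in edgeR), and -2.26 in fasted replicate 4. The 10 largest falls ranged between -2.54 and -1.67 over all libraries and between -3.10 and -1.67 in fasted replicate 4, which was among the libraries they were chosen on. They also included rows after the calcium-dependent kinase gene Camk4 (-2.05), the zinc finger gene Zfand4 (-2.13), the histone gene Hist2h4 (-2.33) and AI464131 (-2.54).

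Rows after Herpud1 and Ern1 fell, those after Herpud1 with a wide spread. Herpud1 encodes an endoplasmic reticulum membrane protein of protein degradation, and Ern1 the stress sensor IRE1. All 4 rows after Herpud1, in 3 loci that began 1422 to 7501 bases past its end, were lower in fasted livers, by -1.38 to -2.02 on the log2 scale. The most abundant, at 1422 bases, had 5.15, 6.71, 6.97 and 4.59 CPM in fasted livers, against 20.2, 20.6, 8.56 and 11.4 CPM in ad libitum livers. The ad libitum livers thus split, with replicates 1 and 2 well above replicates 3 and 4, yet stayed above the fasted ones. In fasted replicate 4 alone the 4 rows changed by -1.73 to -2.61, and 1 of them passed. The call of the most abundant (adjusted p = 0.021 in edgeR) was lost without fasted replicate 1 or 2, at 0.070 and 0.051, and that of the row at 5258 bases (0.018) without fasted replicate 1, 2 or 3, at 0.060, 0.051 and 0.054. The row 891 bases after Ern1 had 3.00, 3.78, 2.85 and 2.56 CPM in fasted livers, against 10.4, 7.66, 6.41 and 6.33 CPM in ad libitum livers. Its groups did not overlap, and it passed with -1.33 (adjusted p = 0.00021 in edgeR), and with -1.59 in fasted replicate 4; the rows within Ern1 changed by -1.34.

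Homer1 and S1pr1 likewise had several lower rows. After Homer1, which encodes a scaffold protein of signalling complexes, 3 loci at 480, 5654 and 8654 bases changed by -1.13, -1.20 and -1.34, the second of them Gm47155 (sequence above); in fasted replicate 4 these were -1.11, -0.99 and -0.79, of which the first passed. The rows within Homer1 changed by -0.81, and none of the 3 passed relative to them. The most distant had 0.303, 0.193, 0.198 and 0.399 CPM in fasted livers, against 1.16, 0.450, 0.591 and 0.545 CPM in ad libitum livers. Its groups did not overlap, but its call (adjusted p = 0.021 in edgeR) was lost without ad libitum replicate 1, fasted replicate 2 or fasted replicate 3, at 0.097, 0.059 and 0.065. After S1pr1, the sphingosine-1-phosphate receptor of endothelium, 4 rows at 760 to 7019 bases changed by -1.03 to -1.64 and all passed. In fasted replicate 4 they changed by -1.50 to -2.22, and the row at 5041 bases did not pass (adjusted p = 0.073 in edgeR). That row's groups overlapped, with a highest fasted value of 0.534 CPM and a lowest ad libitum value of 0.468 CPM, and it (-1.41, adjusted p = 0.015) lost its call without ad libitum replicate 4, at 0.056. Of the endothelial markers, 3 of 6 had rows, with a summed level of 3.19 to 5.48 CPM in fasted and 3.00 to 3.70 CPM in ad libitum livers; their part in the S1pr1 result was not tested.

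**Figure D3:**
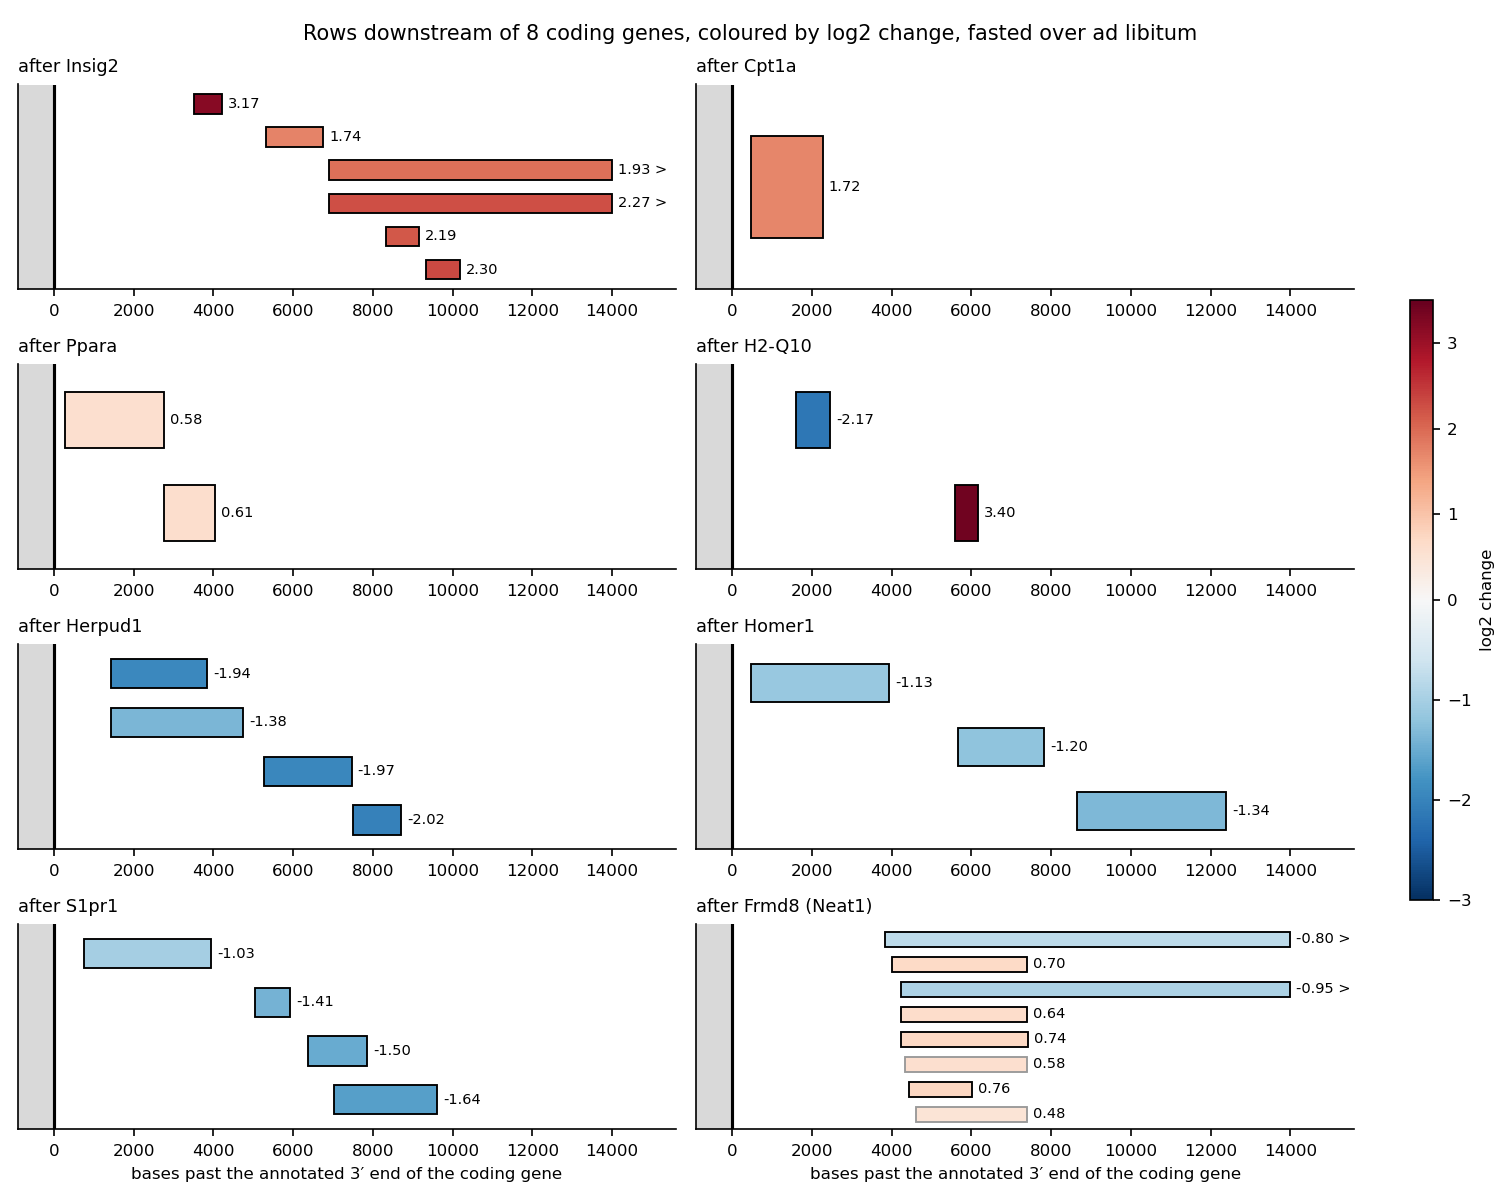
Downstream transcripts after 8 coding genes, drawn to scale by bases past the gene end and coloured by log2 change in fasted against ad libitum livers; a black outline marks rows that passed, grey rows that did not, and an arrow rows that run past the panel. All rows after Insig2 are higher (1.74 to 3.17) and all after Herpud1, Homer1 and S1pr1 are lower, while the rows after Frmd8 (Neat1) and H2-Q10 hold both directions.

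In all, 19 genes had at least 2 loci that passed. In 5 of them (Agpat3, Insig2, Plpp2, Ppara and Spata17) all such loci were higher, in 9 (Alg2, C9, Foxk2, Herpud1, Hipk2, Homer1, Lactb2, S1pr1 and Slc9a7) all were lower, and in 5 (Cfdp1, Gm26992, H2-Q10, Smarcal1 and Top1mt) they went both ways. Loci after 1 gene may be parts of 1 RNA and are not independent.

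After H2-Q10, a class I histocompatibility gene whose protein the liver secretes, the rows went opposite ways. The row 5576 bases past its end, at chr17:35480139-35480728, had 74.7, 94.7, 54.7 and 90.6 CPM in fasted livers, against 5.97, 6.19, 9.66 and 8.12 CPM in ad libitum livers. All fasted values were more than 5-fold above all ad libitum ones. Its log2 change was 3.40 (SE 0.21, adjusted p = 7.9e-06 in edgeR), and 3.60 in fasted replicate 4. The row at 1601 bases had 0.449 ± 0.0758 CPM in fasted and 2.03 ± 0.416 CPM in ad libitum livers (SD, n = 4 each), a log2 change of -2.17 (adjusted p = 2.2e-05 in edgeR). Class I genes are a family of near-identical copies, so how reads were divided among copies makes both levels uncertain.

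A spliced non-coding RNA, A730036I17Rik, began 7354 bases after Slc20a1, a phosphate transporter gene. It had 2.31, 2.57, 1.83 and 2.54 CPM in fasted livers, against 0.314, 0.396, 0.118 and 0.258 CPM in ad libitum livers. Every fasted liver, replicate 4 included, was far above the ad libitum range. The log2 change was 3.07 (SE 0.26, adjusted p = 6.9e-06 in edgeR), and 3.20 in fasted replicate 4. That of the rows within Slc20a1 was 0.68, and the ratio of both changed by 2.08 (adjusted p = 0.00066 in limma).

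The other 7 of the 10 largest rises were high in fasted replicates 1 to 3 only. They lay after Amy1, Mbip, BC024063, Olfr1116, Cenpc1, Gm26992 and Sde2, with log2 changes of 2.79 to 5.21 over all libraries. The row 666 bases after Mbip had 10.3, 11.1, 10.8 and 0.798 CPM in fasted livers, against 0.429, 0.701, 0.315 and 0.474 CPM in ad libitum livers. Replicate 4 was thus near the ad libitum livers, as it was in the other 6. The log2 change after Mbip was 4.10 (adjusted p = 0.026 in edgeR) but 0.73 in fasted replicate 4 (adjusted p = 0.21). Its call was lost when any library other than fasted replicate 4 was left out, at adjusted p between 0.058 and 0.073. The same 7 left-out libraries each ended the calls after Amy1, BC024063, Olfr1116, Cenpc1 and Gm26992, at adjusted p between 0.056 and 0.091, and leaving out ad libitum replicate 2 ended that after Sde2, at 0.058. The rows after Cenpc1, Gm26992 and Olfr1116 overlap pseudogenes, whose reads may be shared with their parent genes.

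The Neat1 rows, 3824 to 4597 bases after Frmd8 on chromosome 19, split by length. Frmd8 had no row on its own strand; the 3 rows opposite it were lower in sum (8.62 ± 1.10 CPM in fasted, 14 ± 0.945 CPM in ad libitum livers; SD, n = 4 each). The row of 20771 bases that equals the long form had 362, 509, 408 and 466 CPM in fasted livers, against 1087, 757, 750 and 786 CPM in ad libitum livers. Its groups did not overlap, with ad libitum replicate 1 the highest, and its log2 change was -0.95 (SE 0.15, adjusted p = 0.0007 in edgeR) and -0.86 in fasted replicate 4 (adjusted p = 0.064). The short form of 3004 bases, within the long one, had 72.7, 57.8, 68.7 and 100.4 CPM in fasted livers, against 50.6, 55.2, 46.4 and 40.5 CPM in ad libitum livers. Here the fasted livers were the higher ones, by 0.64 (SE 0.16, adjusted p = 0.015 in edgeR) and by 1.06 in fasted replicate 4; the call was lost without ad libitum replicate 3 or 4, at 0.058 and 0.064. Other short rows that start near it, of 3092, 3037 and 1030 bases, changed by 0.70, 0.74 and 0.76, and these calls held with any single library left out. A spliced row of 5450 bases went with the long form (-0.80), and the 2 shortest rows, of 454 and 314 bases, did not pass. How reads were divided among these overlapping rows is not given in the sources used here.

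By level per length, the 8 leading loci were small RNA genes, ribosomal protein pseudogenes and copies of other genes. Far above the rest, the row over the small nuclear RNA gene Gm24950, 5502 bases after Rdm1, averaged 2421 RPKM. It had 1320, 1238, 1597 and 1736 CPM in fasted livers, against 1099, 1068, 1037 and 1173 CPM in ad libitum livers. Its groups did not overlap, and its log2 change of 0.43 (adjusted p = 0.034 in edgeR) lost its call without any 1 of ad libitum replicates 1 to 4, fasted replicate 3 or fasted replicate 4, at 0.054 to 0.094. The other 7, after U2af1, Stk19, Tulp3, Acads, Tmem167b, Prf1 and Defa28, did not pass, with log2 changes of -0.29 to -0.08. Among them were Rpl37rt, Rpl18-ps2 and Rpl27a-ps1, copies of ribosomal protein genes, and Scarna2, a guide RNA of Cajal bodies. For such copies, reads may be shared with near-identical genes.

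Beyond the rules on size and level, abundant downstream transcripts that passed both over all libraries and in fasted replicate 4 and averaged 5 CPM or more in 1 group were picked after their values were seen. Since fasted replicate 4 and the ad libitum libraries are in both comparisons, passing both is no independent support. Of those not described above, the row after Zbtb16, which encodes a zinc finger repressor, had 6.70 ± 1.63 CPM in fasted and 2.92 ± 0.674 CPM in ad libitum livers (SD, n = 4 each; log2 change 1.19, and 1.35 in fasted replicate 4). The row 9417 bases after Smdt1, which encodes a subunit of the mitochondrial calcium uniporter, had 72.8, 86.2, 83.7 and 78.3 CPM in fasted livers, against 31.1, 44.3, 32.9 and 35.8 CPM in ad libitum livers. Neither overlapped, and the Smdt1 row changed by 1.16 (adjusted p = 3.2e-05 in edgeR), and by 1.12 in fasted replicate 4. Smaller rises of 0.51 to 0.83 were those after Agpat3, Apex2, Blcap, Fam32a and Gm5624. On the lower side, the row 818 bases after Nrp1, a semaphorin and VEGF co-receptor gene, had 18.7, 14.8, 14.1 and 16.2 CPM in fasted livers, against 39.8, 42.5, 34.4 and 32.8 CPM in ad libitum livers. All fasted values were below all ad libitum ones, with a log2 change of -1.23 (adjusted p = 2.1e-05 in edgeR), with -1.21 in fasted replicate 4 and -0.84 in the rows within Nrp1. Rows after Exph5, Gpc4, Sftpb, Sfpq, Tmem220, Pm20d2, Arl10, Mblac1 and Pde3b fell by 0.69 to 1.07 on the log2 scale.

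There were 1815 downstream transcripts after a gene with rows of its own. For 1349 downstream transcripts both the row and its gene passed the low-count filter, so that the change relative to the gene could be tested. Of them, 179 passed (13.3%), 96 higher and 83 lower relative to the gene in fasted livers, against 16.8% of all 7553 row and gene pairs, 11.1% higher and 5.69% lower. Fasted replicate 4 alone gave 9 higher and 1 lower, where 1.87% of all pairs passed, 1.31% higher and 0.556% lower. The count of 179 became 346 when fasted replicate 4 was left out, and 87, 100 and 84 when fasted replicate 1, 2 or 3 was, and 111 when ad libitum replicate 4 was. Where the gene rose (178 rows after 102 genes), 37 downstream rows were higher and 7 lower, with a median log2 change of 0.24; the median change of those genes was 0.68. Where the gene fell (207 rows after 131 genes), 15 were higher and 29 lower, with a median of -0.10, against -0.52 in the genes. Where the gene did not pass (964 rows after 603 genes), 59 were higher and 52 lower, with a median of -0.01. Among the 6611 tested coding genes, 28.6% passed, and over all tested rows 9.7% were higher and 7.81% lower. In the 123 rows that began beyond 5000 bases after a gene that fell, the median was 0.01, against -0.48 in the genes. In fasted replicate 4 the median of these 123 rows was -0.24, as was that of all 207 rows after genes that fell. For the 178 rows after genes that rose it was 0.16 in that library. The genes were sorted by their own test and the rows were not. These medians therefore cannot tell whether rows changed less than their genes.

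**Figure D4:**
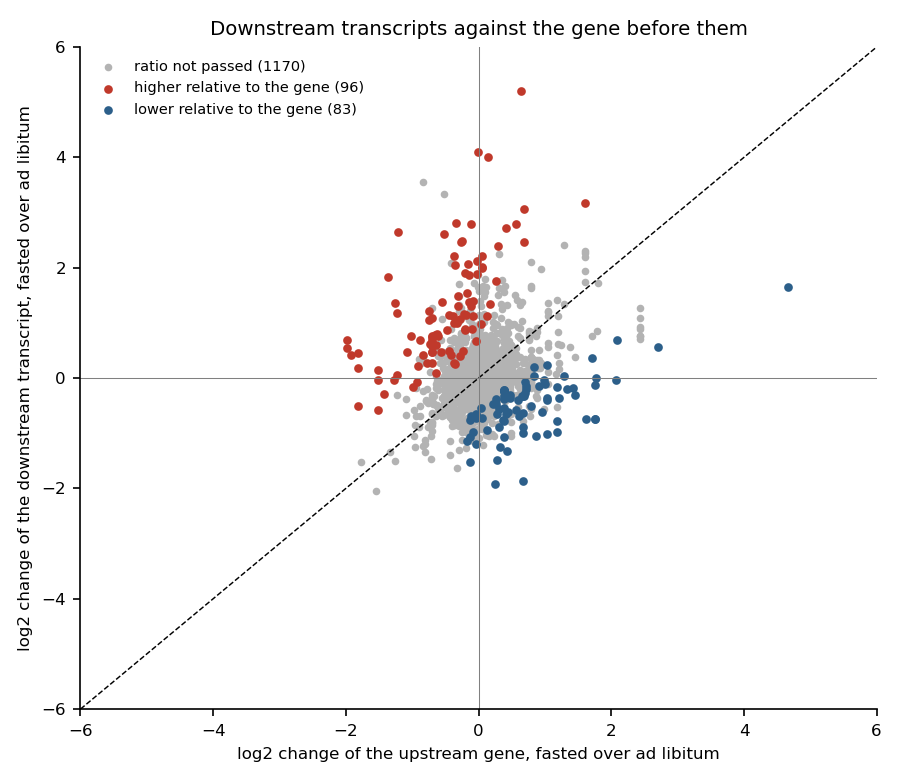
Log2 change of 1349 downstream transcripts against the log2 change of their upstream gene, fasted over ad libitum livers; grey points are the 1170 pairs whose ratio did not pass, and coloured points the 96 with a higher and the 83 with a lower ratio. The dashed line marks equal change.

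Single pairs differed from their gene in both directions. Relative to Sfpq, whose product is a paraspeckle protein, the row 6975 bases downstream, wholly within its RefSeq span, was lower by -0.89 (SE 0.21, adjusted p = 0.012 in limma). It had 3.22, 2.99, 2.34 and 1.97 CPM in fasted livers, against 5.80, 5.90, 4.49 and 4.63 CPM in ad libitum livers, without overlap, while the gene had 39.9 ± 2.41 CPM in fasted and 42.2 ± 1.65 CPM in ad libitum livers (SD, n = 4 each). The ratio was also lower, by -1.29, in fasted replicate 4 (adjusted p = 0.040). After Pde3b, a phosphodiesterase that breaks down cyclic AMP, the ratio was lower by -0.57 (adjusted p = 0.037), a call lost without any single library other than fasted replicate 4 and ad libitum replicate 2, at 0.062 to 0.098. Gm45518, 7063 bases after Msmo1, a sterol synthesis gene, was higher relative to its gene by 2.51 (adjusted p = 0.016 in limma), with 2.78 ± 0.815 CPM in fasted and 1.23 ± 0.141 CPM in ad libitum livers (SD, n = 4 each), and by 1.67 in fasted replicate 4 (adjusted p = 0.26). The other ratio rises by size were after Amy1, Uck2, Mad1l1 and BC024063, all rows that were high in fasted replicates 1 to 3 only. The largest ratio falls were both rows after Hipk2 and those after Ralyl, Peli1 and Vps13d, by -1.51 to -1.95. In fasted replicate 4 alone these ratios changed by -1.88 to -0.55. The Ralyl row itself was higher in fasted livers over all libraries, and stood at -0.21 in fasted replicate 4. For Hipk2, Ralyl and Peli1, as for Mad1l1 and BC024063 above, the gene level came from rows on its opposite strand alone. The ratio calls after Amy1 and BC024063 were lost without any single library other than fasted replicate 4, at adjusted p of 0.063 to 0.11. That of the farther Hipk2 row was lost without ad libitum replicate 2, 3 or 4 or fasted replicate 1 or 3, at 0.053 to 0.069.

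The split of calls into higher and lower differed in count between distances from the gene end. Within 1000 bases, 22 rows were higher and 41 lower of 306 tested (20.6%). Over all tested rows 9.7% were higher and 7.81% lower. The counts were 13 higher and 17 lower of 225 at more than 1000 and up to 2000 bases (13.3%), 44 higher and 54 lower of 594 beyond that up to 5000 bases (16.5%), and 147 higher and 84 lower of 1506 beyond that up to 10000 bases (15.3%). In fasted replicate 4 alone the nearest group had 3 higher and 15 lower, and the farthest 23 higher and 17 lower. By annotation, RefSeq extensions of the upstream gene had 22 higher and 36 lower of 248, long non-coding genes 28 and 32 of 314, small RNA genes and pseudogenes 28 and 8 of 138, rows in another coding gene's RefSeq span 2 and 6 of 77, and unannotated rows 146 and 114 of 1854, beside the same 9.7% higher and 7.81% lower over all tested rows. In fasted replicate 4 the small RNA genes and pseudogenes had 1 higher and 4 lower. None of these differences between distances or classes was tested.

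**Figure D5:**
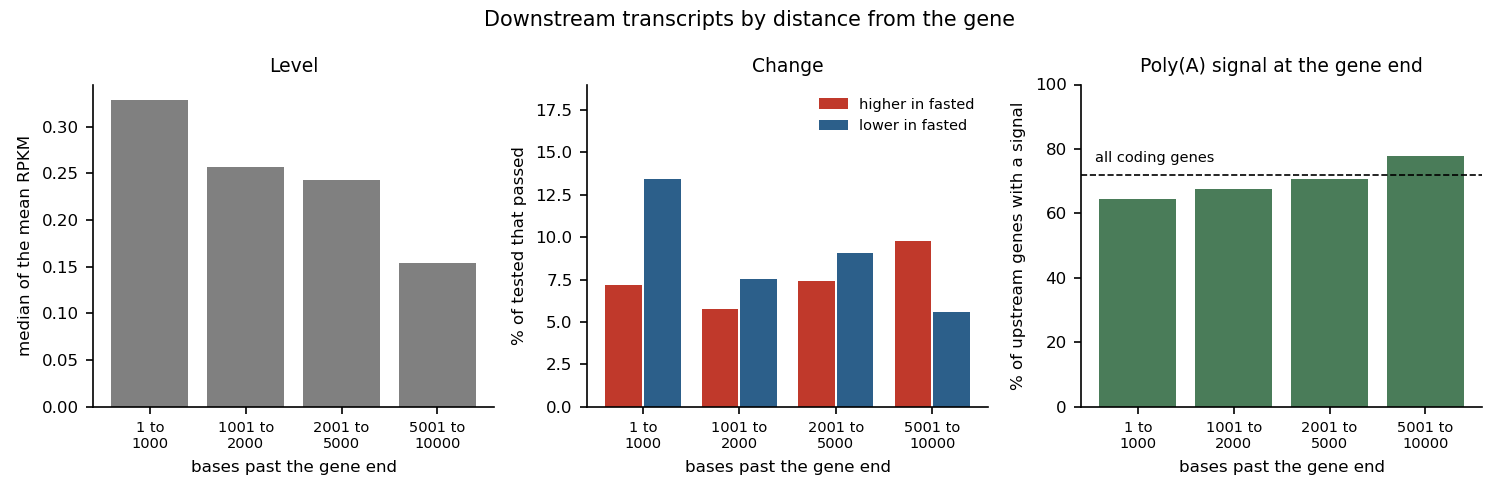
Downstream transcripts by distance of their start from the gene end, in 4 bins up to 10000 bases: median RPKM, percent of tested rows that passed as higher or lower in fasted livers, and percent of upstream genes with a polyadenylation signal in their last 50 bases. The median level is highest (0.329 RPKM) and the signal share lowest (64.5%) in the nearest bin.

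Of 40 listed genes of 3′ end cleavage, polyadenylation and termination, 23 had rows and 20 were tested; 2 were higher and 3 lower in fasted livers, with a median log2 change of -0.03. Over all 6611 tested coding genes 28.6% passed, 12.4% higher and 16.3% lower, so the list was near the background. Lower were Cstf3 (6.08 ± 0.654 CPM in fasted, 10.7 ± 1.73 CPM in ad libitum livers; log2 change -0.81, adjusted p = 0.00051 in edgeR) and Cstf2 (-0.39), subunits of the cleavage stimulation factor, and Papola (-0.36), the poly(A) polymerase. Higher were Ints3, an Integrator subunit, and Zc3h4, a restrictor of non-coding transcription, both from 1 row on the opposite strand with under 1 CPM on average in either group.

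As a whole, downstream transcripts took 0.957% ± 0.113 of reads in fasted and 0.942% ± 0.0481 in ad libitum livers (SD, n = 4 each; two-sided exact permutation p = 0.80). Per 100 reads in rows within their upstream genes, there were 23.8 ± 0.421 downstream reads in fasted and 26.1 ± 1.82 in ad libitum livers, with p = 0.0286 in the same exact test, the smallest that 4 against 4 can give. That difference of -2.29 was 0.32 (exact permutation p = 0.63) without the 10 downstream transcripts with the most reads and -0.09 (p = 0.86, same test) where the gene level came from rows on the gene's own strand. Leaving out the small nuclear RNA row after Rdm1 and the Neat1 rows gave -0.25 (exact permutation p = 0.63). Per 100 reads of rows more than 10 kb from any coding gene, there were 3.05 ± 0.494 in fasted and 3.09 ± 0.201 in ad libitum livers (exact permutation p = 0.89).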

How the data were processed

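Liver RNA from 4 fasted and 4 ad libitum mice was measured by total RNA sequencing. Per the submitters' processing notes, reads were made with bcl2fastq 2.17 and aligned with BWA to mm10; no source used here gives the counting tool, its use of strand or how reads that match several places were treated. The deposited table holds raw read counts and RPKM values by the authors for each NONCODE transcript, with exon number, length and the CNCI coding score, per the file headers. Empty cells, deposited beside an RPKM of 0, were read as 0 counts. The mitochondrial 16S row, empty in ad libitum replicate 3, was left out of totals and tests. Library totals without it ran from 51107745 to 119486211 reads, and for low rows this depth limits the precision.

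Transcripts were placed against GENCODE release 21 coding genes and RefSeq gene spans of the mm10 build. A coding gene's level was the sum of the NONCODE rows with known exon bases in its exons, on either strand. Rows that overlap a downstream transcript were left out of it. Levels and changes of genes and markers, and the ratios to them, are those of such rows and may differ from those of the mRNA. Counts were filtered with filterByExpr, scaled by TMM and tested with edgeR 4.0.16 in R 4.3.3, with Benjamini-Hochberg adjustment over all 40321 tested rows and a threshold of 0.05. Downstream to gene ratios used limma 3.58.1 on the log2 ratio of row CPM + 0.1 to gene CPM + 0.1. This understates changes of low rows and of low genes alike, so a ratio can move either way. Pseudocounts of 0.02 and 0.5 CPM gave 142 and 237 downstream ratio calls, in place of 179. The ratio after Agpat3 was -1.36 with the first and 0.24 with the second. Library measures used an exact permutation test over 70 splits. DESeq2 1.42.0, limma-voom, other scalings, filters, pseudocounts, windows, a replicate block and single left-out libraries were alternatives. Scripts ran under Python 3.11.15 with pandas 2.3.3, and were tested on simulated data. On simulated counts, 4.5% of 1.5-fold, 40.3% of 2-fold and 84.8% of 4-fold changes were recovered. On simulated ratios with an assumed spread, 53% of log2 shifts of 1 and 98% of shifts of 2 were. A row or ratio that did not pass may thus still have changed.

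Named were the 10 loci of largest rise and of largest fall among those that passed without overlap and with 0.5 CPM or more in the higher group, the 8 of highest RPKM, the 5 of largest ratio rise and fall, and rows after listed genes; neighbours of such rows, the Neat1 rows and those that passed in fasted replicate 4 as well were added after values were seen. Members and lists were chosen with earlier results of these data known. The p-values measure the spread between these mice, 1 library each.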

Additional observations from a re-analysis of the deposited data

Results flagged for a closer look

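In 186 groups of 4 values of named downstream transcripts, 10 had 1 outlying library. Its gap to its nearest neighbour, divided by the range, was above the 95% critical value of Dixon's test. Chance gives about 1 independent group in 20, and the count was near that share. The groups share libraries, some rows overlap and many were chosen for large change, so no conclusion was drawn from the count. In 4 of the 10 groups fasted replicate 4 was far below the other fasted livers: after Amy1 at 0.15 CPM, after BC024063 at 0.224 CPM, after Olfr1116 at 0.249 CPM and after Mbip at 0.798 CPM. After Zbtb16 the low fasted liver was replicate 2, at 4.29 CPM. Among ad libitum livers, replicate 1 was high in the long Neat1 row (1087 CPM), in the spliced Neat1 row of 5450 bases (116 CPM), after Foxo1 (0.971 CPM) and in the row 6361 bases after S1pr1 (1.51 CPM). Replicate 2 was low in the row 5041 bases after S1pr1, at 0.468 CPM.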

How the results depend on the processing

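The limits are 4 mice a group, low counts and fasted replicate 4. Fasted replicate 4 alone against ad libitum gave 1350 calls over all rows, 91 downstream (42 higher, 49 lower), 384 coding genes, and 141 ratios of which 10 were downstream; the row after Mad1l1 turned to -0.42 and that after Ralyl to -0.21. Library totals in place of TMM gave 4661 calls over all rows and 273 downstream, 114 of them lower. No low-count filter gave 11342 over all rows and 399 downstream higher. At least 1 CPM in 4 libraries gave 237 downstream, 87 higher, and 628 ratios, 82 of them downstream. Limma-voom gave 117 higher, and a 5 kb window 191 (79 higher, 112 lower). The share of reads differed by -0.0342 in the 5 kb window and by -0.00037 without the 10 rows with the most reads; that per 100 gene reads by 0.324, reversed, without those 10, by -0.0886 with gene rows on the gene's strand and by -0.250 without the Rdm1 small nuclear RNA and Neat1 rows, the last chosen after seeing the data.

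With any 1 library left out, calls ranged from 4171 to 11260 over all rows, 235 to 680 downstream (108 to 433 higher, 117 to 247 lower), 1351 to 2283 in coding genes, and 676 to 2398 in ratios (84 to 346 downstream). The differences ranged from -0.0217 to 0.0530 in share, -2.76 to -1.41 per 100 gene reads (p 0.0286 to 0.0571, exact permutation) and -0.240 to 0.125 per 100 distant reads.

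Same-numbered libraries of both groups had correlations of deviations of 0.0416, -0.0011, 0.0151 and 0.0027, so the numbers do not pair them. With the replicate block, 5650 rows, 323 downstream transcripts (158 higher, 165 lower), 1729 coding genes and 1189 ratios (170 downstream) passed. Of single named results, 128 kept their side of the threshold, 8 lost their call and 1 gained one under the block. DESeq2 changed 2 of 89 and RLE size factors none of 89. Limma-voom took the call from 10 of 89. These were the rows after Amy1, Mbip, BC024063, Olfr1116, Cenpc1, Gm26992, Sde2, Uck2, Mad1l1 and Ralyl.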
